A study of Gallus gallus with 8 samples.

Results

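Gene expression in 4 regions of the embryonic chick (Gallus gallus) heart was set against that in 4 samples of lateral plate mesoderm. The heart side held the sinoatrial node (the pacemaker region), the left atrium, the atrioventricular junction and the apex of the common ventricle. The mesoderm side held the pacemaker progenitor field and the anterior, left and posterior mesoderm. The labels do not name all 4 of these as precursors of the heart. All 8 libraries of the series entered the comparison, 4 on each side. Each library was made from polyadenylated RNA of pooled, dissected embryonic tissue, so each tissue had 1 library and no replicate. The labels name no strain, genotype, treatment or sex. The mesoderm was taken at Hamburger-Hamilton stage 8 and the junction at stages 17 to 18, while the stage of the other 3 heart regions is left out of the sources used here. Tissue and stage therefore differ together and cannot be told apart, and the 4 libraries of a side are different tissues rather than repeats of 1 condition.

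At stage 8 of chick development the embryo has its first somites, and the heart precursors lie as paired sheets in the lateral plate mesoderm, next to the endoderm and below the ectoderm. The sheets fuse into a tube that begins to beat, loops, and divides into inflow, atrium, junction and ventricle. Cardiac muscle cells differentiate by turning on sarcomere proteins, calcium-handling proteins, channels and junctions under transcription factors such as NKX2-5, GATA4, TBX5 and MEF2 proteins. The early mesoderm is patterned along its axes by Hedgehog, FGF, Wnt and retinoic acid signals and by HOX genes. LIN28 proteins, which block maturation of let-7 microRNAs, mark early embryonic cells and decline as tissues differentiate.

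Levels are counts per 1000000 reads (CPM) after scaling of the libraries to each other with TMM, a method that takes most genes as unchanged. They are not corrected for gene length. Library totals on genes ran from 10258697 reads in the ventricle to 17189803 in the atrium, and from 10757964 in the posterior mesoderm to 16110771 in the pacemaker progenitor field, so 1 read was worth 0.0541 to 0.109 CPM. A gene was tested if it reached 5 CPM in at least 1 of the 8 libraries. It was called higher in heart if its lowest heart library was at least 2-fold above its highest mesoderm library and held at least 1 CPM, and called lower by the mirror rule. Every call thus holds in all 16 pairs of a heart with a mesoderm library. A gene that reached 5 CPM on 1 side alone could be called only in favour of that side. Counts and medians by gene list rest in part on this filter. The fold given for a gene is that of its nearest pair, with an exact (Clopper-Pearson) 95% interval that covers counting error only. With 1 library per tissue no test between conditions was possible. Values are listed in the order node, atrium, junction and ventricle for heart, and progenitor field, anterior, left and posterior for mesoderm.

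Of 10454 tested genes, 783 (7.49%) were higher and 398 (3.81%) were lower in every heart library than in every mesoderm library. These shares are the base for every count by gene list below. The genes that were higher took 13.1% of the reads of the node, 14.3% of the atrium, 10.6% of the junction and 12% of the ventricle, against 0.922% to 1.03% in the mesoderm libraries. The genes that were lower took 0.296% to 0.399% of heart reads, against 2.08% to 2.40% of mesoderm reads. The direction of both contrasts was set by the calls themselves. The median nearest-pair fold was 4.19 among the higher genes and 3.30 among the lower ones. At least 10-fold differences in every pair were found for 203 higher and 76 lower genes, and at least 100-fold ones for 55 and 11. The median log2 ratio of the sides' geometric means over all tested genes was 0.0043. Without TMM, scaling by library totals moved that median by -0.319, and the calls became 599 higher and 655 lower, so that 47.8% of calls were higher in place of 66.3%.

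**Figure D1:**
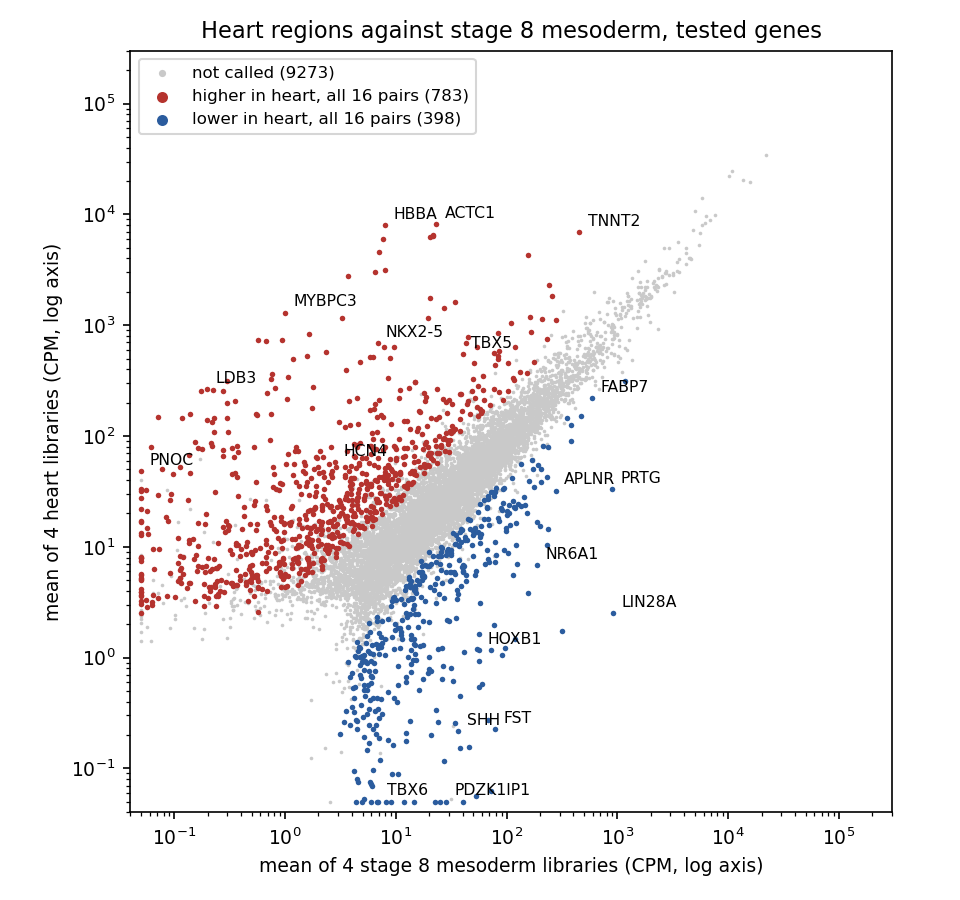
Mean CPM of the 4 heart libraries (vertical log axis) against the mean of the 4 mesoderm libraries (horizontal log axis), 1 point per tested gene, with means under the axis minimum drawn near the edge. The 783 genes higher in all 16 pairs are red, the 398 lower ones blue and the others grey; sarcomere genes and globins lie far above the diagonal, and LIN28A and PRTG far below it.

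Any 1 heart library differed from any 1 mesoderm library at many more genes than these. Each of the 16 pairs gave 1662 to 1926 genes at least 2-fold higher in heart and 980 to 1453 lower. Of genes that differed in at least 1 pair in a direction, the number that did so in exactly 15 pairs was 111 higher and 75 lower, against the 783 and 398 that did so in 16. Comparing the geometric means of the sides in place of all pairs gave 1706 higher (16.3%) and 1027 lower genes (9.82%).

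**Figure D2:**
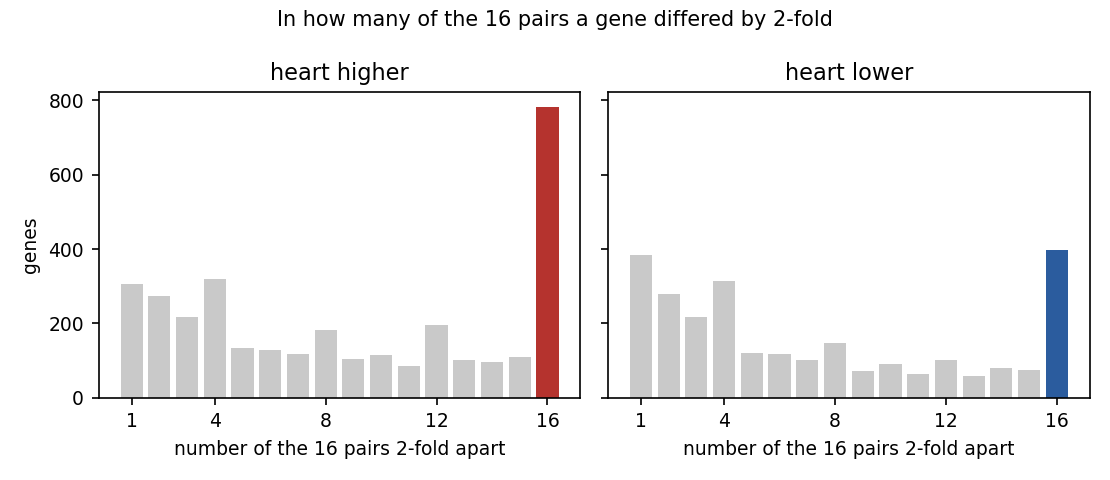
Number of tested genes (vertical) at least 2-fold higher (left) or lower (right) in heart in exactly 1 to 16 of the 16 library pairs (horizontal), with genes in no pair left out. The coloured bars hold the 783 higher and 398 lower genes that differed in every pair, and the bars just before them 111 and 75 genes.

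The heart labels were matched by defining genes of cardiac muscle in every heart library. TNNT2 (chromosome 26, 786679 to 794041, plus strand, in the coordinates of the deposited tables, with a genome build that the sources used here do not give), the cardiac troponin T of the thin filament, had 6218, 7583, 7143 and 6901 CPM in the heart libraries and 456, 694, 370.0 and 297 CPM in the mesoderm libraries. It was thus read in all mesoderm libraries too, most in the anterior one, and the sides were 8.96-fold apart in the nearest pair. Some factors of early heart-forming mesoderm were read on both sides: HAND2 at 298 to 384 CPM in heart against 162 to 284 in mesoderm, and GATA4 at 77.5 to 157 CPM in heart against 47.7 to 112 in mesoderm. These 2 do not stand for all such genes. Of 15 tested lateral plate and intermediate mesoderm genes, 5 had a log2 ratio above 0 and 10 below, with a median of -1.24. Other cell types also entered the pools. Erythroid genes (12 found by name, among them 5 globins) summed to 17761 to 47224 CPM in heart and 128 to 163 CPM in mesoderm, with the atrium highest. In the junction, the lowest heart library, they were still far above every mesoderm library. Endothelial genes (18 found) summed to 360 to 786 CPM in heart and 199.9 to 238 CPM in mesoderm. Endoderm and liver genes (13 found) summed to 123 to 1528 CPM in heart and 918 to 1120 CPM in mesoderm. In every library APOA1 made up most of that sum. Notochord and node genes (5 found) summed to 1.19 to 4.25 CPM in heart and 43.8 to 53.2 CPM in mesoderm. The part of these other cells in the calls below was not tested. In pooled tissue, fewer cells of a type and less RNA per cell cannot be told apart.

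Genes of the sarcomere, the contractile unit of muscle, were higher in heart as a group. Of the listed thick filament genes, 9 of 10 tested were higher in every heart library and none lower, with a median log2 ratio of 8.32. The 9 include MYL9, a light chain of smooth muscle and non-muscle myosin. Of the thin filament genes 9 of 12 were higher, with a median of 4.34. Of the Z-disc and costamere genes 17 of 24 were higher, with a median of 4.98. Over all tested genes 7.49% were higher and 3.81% lower. The lists had 13, 15 and 27 members found by name. Members that reached 5 CPM in heart alone, such as LDB3, could not have been called lower. Together the genes of these lists took 3.85% to 4.20% of the reads in heart libraries and 0.303% to 0.348% in mesoderm libraries.

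Among named genes with at least 20 CPM in each heart library, LDB3 (chromosome 6, 3414438 to 3495739, plus strand), a PDZ and LIM protein of the Z-disc, had the largest nearest-pair fold. It had 134, 318, 225 and 379 CPM in the heart libraries and 0.27, 0.0874, 0.174 and 0.257 CPM in the mesoderm libraries, a nearest-pair fold of 496 (212 to 1528). The mesoderm values stand for at most 5 reads in a library, and the 2 sides are far apart. MYBPC3, the cardiac myosin-binding protein C, had 909, 1345, 1465 and 1469 CPM in heart and 2.54, 0.612, 0.405 and 0.429 CPM in mesoderm (358-fold, 269 to 487). SYNPO2L, a Z-disc protein of heart and skeletal muscle, had 347, 165, 246 and 252 CPM in heart and 0.379, 0.262, 0.289 and 0.172 CPM in mesoderm (437-fold, 212 to 1088). LMOD2, a leiomodin that lengthens thin filaments, had 109 to 209.6 CPM in heart against 0 to 0.27 in mesoderm, and SMPX, a small muscle protein of the costamere, 67.7 to 94.4 CPM in heart against 0 to 0.162 in mesoderm, with nearest-pair folds of 402 and 417. Folds over 200 in the nearest pair were also found for SSPN, sarcospan of the dystrophin complex (264), CMYA5, a costamere protein (264), and the light chain MYL1 (260.4). With a pseudocount of 1 CPM the fold of CMYA5 was 28.3. The mesoderm values of SMPX are 0 to 3 reads, and its interval was 142 to 2026.

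Several filament proteins took large shares of the heart libraries' reads. ACTC1, cardiac alpha-actin, had 8239.8, 7809, 7079 and 9614 CPM in heart against 29.6, 24.1, 18.6 and 20.2 CPM in mesoderm (239-fold, 219.6 to 260.2). MYL2, the regulatory light chain, had 5459.8, 8064, 6398 and 5432 CPM in heart against 28.8, 30.1, 15.2 and 13.1 CPM in mesoderm (180.2-fold). MYL3, an essential light chain, was lowest in the node, with 1125, 4008, 2558 and 3504 CPM in heart against 6.38, 2.1, 3.07 and 3.26 CPM in mesoderm (176-fold). For these genes the heart libraries lay within a few-fold of each other. That the sides did not overlap follows from the rule of the call. The heavy chain MYH15 spanned 872 to 4944 CPM in heart against 3.99 to 12.3 in mesoderm, with its lowest heart value in the atrium, and MYH7B 184 to 500.1 CPM in heart against 0.686 to 1.41 in mesoderm. Skeletal muscle forms were among the called genes too, such as TNNC2, the fast troponin C, at 24.6 to 247 CPM in heart against 2.33 to 4.11 in mesoderm, TNNI2 at 3.8 to 9.12 CPM in heart against 0.172 to 0.27 in mesoderm and ACTA1 at 692 to 1191 CPM in heart against 75.2 to 90.0 in mesoderm. Actins, light chains and troponins have close copies, and how reads shared between copies were counted is not given in the sources used here.

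Not every filament gene differed. TPM3, a cytoskeletal tropomyosin, had 325, 332, 348 and 333 CPM in heart and 374, 421, 364 and 400.3 CPM in mesoderm, close on both sides. ACTG2 had 296 to 409 CPM in heart against 382 to 692 in mesoderm, and ACTN4, a non-muscle alpha-actinin, 69.8 to 76.8 CPM in heart against 94.5 to 111 in mesoderm, while the muscle form ACTN2 had 639 to 1018 CPM in heart against 0.868 to 2.65 in mesoderm (241-fold). The assembly chaperone UNC45B was higher (188 to 293 CPM in heart against 0 to 1.22 in mesoderm), whereas the methyltransferase SMYD2 was not called (27.7 to 67.4 CPM in heart against 23.5 to 31.8 in mesoderm).

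**Figure D3:**
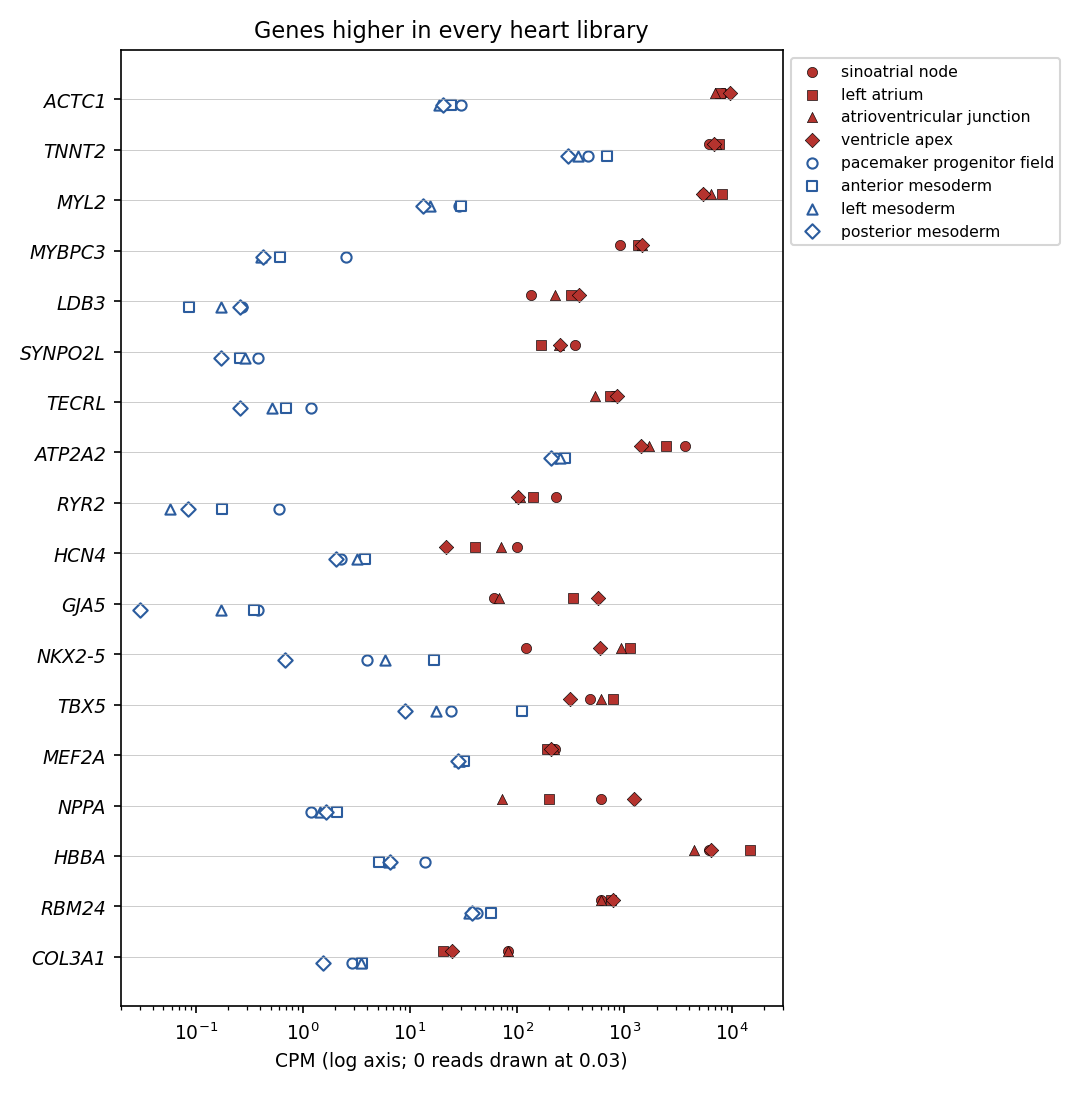
CPM (horizontal log axis) of 18 genes higher in every heart library, with the 4 heart libraries as filled red symbols and the 4 mesoderm libraries as open blue symbols. In each row every red symbol lies right of every blue one, as the call requires. The widest gaps are at LDB3, SYNPO2L and TECRL, with a narrower one at TBX5, where the anterior mesoderm stands closest to heart.

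Genes of calcium handling and excitation followed. Of 13 tested calcium-handling genes, 7 were higher, none lower, and the median log2 ratio was 1.68. Over all tested genes 7.49% were higher and 3.81% lower. Members that reached 5 CPM in heart alone, such as RYR2, could not have been called lower. RYR2, the calcium release channel of the sarcoplasmic reticulum, had 229, 142, 106 and 101 CPM in heart and 0.595, 0.175, 0.0579 and 0.0858 CPM in mesoderm (169-fold, 94.1 to 340.2). Its luminal partner TRDN had 20.8 to 45.2 CPM in heart against 0 to 0.0858 in mesoderm, at most 1 read in a mesoderm library, with a nearest-pair fold of 243 and an interval of 43.1 to 9641. CASQ2, the calcium store protein, had 49.6 to 109 CPM in heart against 0 to 0.595 in mesoderm (83.4-fold). ATP2A2, the pump that refills the store, was already read in mesoderm, with 3686, 2448, 1708 and 1433.03 CPM in heart and 232, 281, 248 and 206 CPM in mesoderm (5.11-fold, 4.91 to 5.31). The inositol trisphosphate receptors were not called, with ITPR2 at 15.7 to 50.7 CPM in heart against 25.5 to 40.04 in mesoderm and ITPR3 at 7.9 to 17.9 CPM in heart against 9.61 to 13.4 in mesoderm. TECRL (chromosome 4, 50554303 to 50607853, minus strand), an endoplasmic reticulum protein linked in people to an inherited calcium-dependent arrhythmia, was in no list and had 785, 736, 537 and 846 CPM in heart and 1.19, 0.699, 0.521 and 0.257 CPM in mesoderm (451-fold, 298 to 720.3).

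Of 16 tested channels and pumps 8 were higher and none lower, against 7.49% and 3.81% of all tested genes. Their median log2 ratio was 1.93. Those that reached 5 CPM in heart alone, such as CACNA1C, could not have been called lower. CACNA1C, the pore of the L-type calcium channel, had 31.4, 38.3, 49.6 and 34.4 CPM in heart and 0.541, 0.262, 0.694 and 0.686 CPM in mesoderm (45.2-fold, 25.6 to 88.2). Its partner subunits CACNA2D1 and CACNB2 were higher as well, by 26.3-fold and 24.9-fold in the nearest pair. HCN4 (chromosome 10, 1408188 to 1497720, minus strand), the pacemaker channel, had 99.9, 40.3, 69.9 and 21.5 CPM in heart and 2.27, 3.84, 3.18 and 2.06 CPM in mesoderm (5.59-fold, 4.01 to 7.93), so even its lowest library, the ventricle, was above the mesoderm. The sodium pump subunit ATP1B1 was higher by 3.01-fold, and ATP1B3 was not called (175 to 240.0 CPM in heart against 192 to 204 in mesoderm). The T-type channel CACNA1G spanned the mesoderm range, with 22.5, 3.43, 8.69 and 1.52 CPM in heart and 10.2, 6.47, 8.16 and 9.95 CPM in mesoderm.

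Of 13 tested genes of cardiac gap and cell junctions, 7 were higher and 1, GJA1, was lower, against 7.49% and 3.81% of all tested genes. GJA5 (chromosome 1, 95779771 to 95798673, minus strand), connexin 40, had 61.4, 329, 68.3 and 571 CPM in heart and 0.379, 0.35, 0.174 and 0 CPM in mesoderm (162-fold, 78.4 to 405). GJA1 (chromosome 3, 64410056 to 64417557, minus strand), connexin 43, had 12.1, 18.2, 20.2 and 41.6 CPM in heart and 125, 94, 100.4 and 150.4 CPM in mesoderm, lower in heart by 2.26-fold (2.01 to 2.55). These connexins were thus called in opposite directions. BVES, a Popeye protein of muscle membranes, had 359.9 to 425 CPM in heart against 2.62 to 4.11 in mesoderm (87.6-fold), XIRP1, an actin-binding protein of intercalated discs, 239 to 282 CPM in heart against 0.487 to 1.4 in mesoderm (171-fold), and CTNNA3, the catenin of cardiac junctions, 16.5 to 131 CPM in heart against 0.0858 to 0.811 in mesoderm (20.4-fold). The general junction proteins JUP and TJP1 were not called, with JUP at 13.4 to 21.5 CPM in heart against 14.8 to 15.6 in mesoderm and TJP1 at 155 to 330.5 CPM in heart against 165 to 204 in mesoderm.

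Of 11 tested peptide and receptor genes, 6 were higher and 1 lower, against 7.49% and 3.81% of all tested genes. Their median log2 ratio was 2.86. NPPA, the atrial natriuretic peptide, had 599, 197, 72.8 and 1224 CPM in heart and 1.19, 2.1, 1.45 and 1.63 CPM in mesoderm (34.7-fold, 23.2 to 54.5), and its heart libraries ran over a 16.8-fold range. CORIN, the protease that cuts the natriuretic precursor, had 10.6 to 42.2 CPM in heart against 0 to 0.27 in mesoderm (39.2-fold). Receptors for acetylcholine (CHRM2, 27.7 to 44.8 CPM in heart against 0.984 to 2.53 in mesoderm), noradrenaline (ADRB1, 11.3 to 41.7 CPM in heart against 2.43 to 4.46 in mesoderm) and adenosine (ADORA1, 4.77 to 6.86 CPM in heart against 0.262 to 0.772 in mesoderm) were each higher. APLNR, the apelin receptor of early mesoderm and endothelium, was lower, with 19, 37.5, 14.2 and 57.7 CPM in heart and 242, 266, 272 and 330.2 CPM in mesoderm (4.19-fold, 3.83 to 4.59). PNOC (chromosome 3, 108460756 to 108465339, minus strand), the precursor of the neuropeptide nociceptin, was in no list and had 62.9, 41.4, 50.3 and 37.4 CPM in heart and 0.0541, 0, 0 and 0.0858 CPM in mesoderm. That is at most 1 read in a mesoderm library, and the nearest-pair fold of 436 has an interval of 77.8 to 17284.

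Transcription factors of the heart were mostly read on both sides. Of 30 tested, 7 were higher and 1 lower, against 7.49% and 3.81% of all tested genes. The median log2 ratio of the 30 was 0.28 with TMM and -0.03 with library totals. NKX2-5 (chromosome 13, 9141154 to 9143369, minus strand) had 120.2, 1123, 926 and 594 CPM in heart and 4, 16.9, 5.79 and 0.686 CPM in mesoderm (7.13-fold, 6.14 to 8.32), low in the node within heart and highest in the anterior sample within mesoderm. TBX5 (chromosome 15, 12588427 to 12666982, plus strand) had 481, 777, 612 and 308 CPM in heart and 24, 110.4, 17.6 and 8.92 CPM in mesoderm (2.79-fold, 2.61 to 2.99), again with the anterior mesoderm nearest to heart. TBX20 had 72.1, 135, 242 and 95.9 CPM in heart and 10.3, 20.2, 11.6 and 4.98 CPM in mesoderm (3.57-fold). MEF2A varied little within either side, with 228, 190.1, 219 and 206 CPM in heart and 31.5, 31.6, 28.4 and 28.1 CPM in mesoderm (6.01-fold, 5.38 to 6.72). PROX1 (2.23 to 35.6 CPM in heart against 0.0579 to 0.35 in mesoderm), HOPX (2.4 to 6.08 CPM in heart against 0.0874 to 0.405 in mesoderm) and ZFPM2, a GATA cofactor (9.06 to 29.7 CPM in heart against 1.89 to 4.46 in mesoderm), were the other higher factors.

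Most other cardiac factors overlapped between the sides or differed by less than the limit. GATA5 had 1556, 801, 752 and 358 CPM in heart and 884, 1242, 663 and 685 CPM in mesoderm, overlapping widely. GATA6 was below mesoderm in every heart library, at 23 to 94 CPM in heart against 126 to 178 in mesoderm, but by only 1.34-fold in the nearest pair. MYOCD, the coactivator of SRF in cardiac and smooth muscle, had 93.3, 25.2, 21.7 and 23.7 CPM in heart and 1.78, 13.7, 1.33 and 0.944 CPM in mesoderm and missed the limit against the anterior mesoderm alone among the mesoderm libraries. MEF2C likewise had 128, 173, 94.4 and 95.4 CPM in heart and 21.3, 61.9, 17.8 and 9.35 CPM in mesoderm, with the anterior sample again the nearest. ISL1, a factor of heart progenitors and of the node, had 17.6, 0.343, 0.695 and 0.434 CPM in heart and 6.27, 14.7, 5.32 and 4.38 CPM in mesoderm: 3 of the heart libraries were under every mesoderm library and the node was above them. MEIS1, a cofactor of HOX proteins, was the lower one, with 47.6, 43.4, 51.7 and 60.1 CPM in heart and 180.3, 169, 173 and 168 CPM in mesoderm (2.79-fold).

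Genes of energy metabolism are given beside 7.49% higher and 3.81% lower among all tested genes. With 7 to 42 genes in a list, the small counts of calls here are not read as a result. Of 42 nuclear genes of the respiratory chain 41 had a log2 ratio above 0, with a median of 0.86 (0.54 with library totals), and 2 were called higher. They were COX17, a copper chaperone of cytochrome oxidase, and SDHB, a subunit of succinate dehydrogenase. COX17 had 177, 155, 153 and 185 CPM in heart and 38.4, 47.6, 33.1 and 39.6 CPM in mesoderm (3.22-fold), and SDHB 218, 265, 241 and 264 CPM in heart and 80.2, 96.3, 79.4 and 86.5 CPM in mesoderm (2.27-fold). None of the 13 mitochondrially encoded genes was called, their share of reads being 6.78% to 14.7% in heart and 7.69% to 11% in mesoderm. None of 7 fatty acid oxidation genes reached the limit, and 1 of 8 citric acid cycle genes did, IDH1, at 66.7 to 82.8 CPM in heart against 25.1 to 32.4 in mesoderm. With library totals IDH1 was not called.

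In glucose use, 4 of 17 tested genes were higher and 1 lower, against 7.49% and 3.81% of all tested genes. The glucose transporter SLC2A1 had 314 to 415 CPM in heart against 120.5 to 138 in mesoderm (2.26-fold), and lactate dehydrogenase A had 73.1, 299, 341 and 157 CPM in heart and 28.6, 25.9, 22.7 and 28.6 CPM in mesoderm (2.56-fold), lowest in the node. SLC2A2, the transporter of liver and yolk sac cells, was lower, at 0.0686 to 0.359 CPM in heart against 5.68 to 18.3 in mesoderm. GAPDH had 9933 to 16592 CPM in heart against 5301 to 6116 in mesoderm and reached the 2-fold limit in 12 of 16 pairs. Of 7 phosphagen and glycogen genes 3 were higher. CKB, the brain-type creatine kinase, had 786, 679, 639 and 1016 CPM in heart and 42.8, 32.5, 37.7 and 67.9 CPM in mesoderm (9.41-fold, 8.74 to 10.1), and GAMT, which makes creatine, had 31 to 48.1 CPM in heart against 0.926 to 1.57 in mesoderm (19.7-fold). Of 16 oxygen carriers and antioxidants 3 were higher, among them the oxygen store myoglobin. Myoglobin (MB) had 9.7, 116, 29.7 and 26.3 CPM in heart and 0.27, 0.437, 0.289 and 0.343 CPM in mesoderm (22.2-fold, 9.28 to 69.5), highest in the atrium. The list had a median log2 ratio of 0.07. Peroxiredoxins and superoxide dismutase 1 were not called, for example PRDX1 at 485 to 612 CPM in heart against 542 to 646 in mesoderm and SOD1 at 509.6 to 645 CPM in heart against 491 to 567 in mesoderm.

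Blood genes were far apart between the sides. Of 9 tested erythroid genes, 6 were higher and 1 lower, against 7.49% and 3.81% of all tested genes. The beta-type globins HBBA and HBE had 6114, 14734, 4482 and 6452 CPM and 5251, 10160.2, 3579.6 and 4849.6 CPM in heart, against 13.7, 5.16, 6.42 and 6.52 CPM and 11.8, 5.77, 7.06 and 5.83 CPM in mesoderm, nearest-pair folds of 328 and 302. Both genes were called, so the lack of overlap between the sides follows from the rule. The alpha-type globins HBA1, HBAD and HBZ had folds of 309, 269 and 179. All 5 were highest in the atrium and lowest in the junction. Globins are close copies of each other, and how reads shared between them were counted is not given in the sources used here. TAL1, a factor of blood and endothelial precursors, was the lower gene, with 3.02, 5.22, 3.65 and 3.36 CPM in heart and 14.4, 11.3, 16.4 and 19.2 CPM in mesoderm (2.16-fold, 1.62 to 2.91).

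Endothelial and endocardial genes gave 6 higher and 1 lower of 17 tested, against 7.49% and 3.81% of all tested genes. Their median log2 ratio was 1.42. With library totals 2 were higher, and TIE1 and VWF were not called. NFATC1, a factor of endocardium and valve precursors, had 10.1, 26.5, 17.3 and 39.2 CPM in heart and 1.14, 1.05, 1.1 and 1.37 CPM in mesoderm (7.38-fold, 4.39 to 13.3). TIE1, a receptor of endothelial cells, had 24.6 to 70.2 CPM in heart against 6.49 to 9.89 in mesoderm (2.48-fold), and ECSCR, an endothelial surface protein, 12.5 to 116 CPM in heart against 2.97 to 3.95 in mesoderm (3.17-fold). VWF was called on few reads, at 1.1 to 11.6 CPM in heart against 0.108 to 0.429 in mesoderm, and its interval of 0.896 to 8.93 includes 1. SOX18, an early endothelial factor, was lower, with 5.03, 4.46, 3.13 and 5.97 CPM in heart and 20.8, 19.7, 23.6 and 26.7 CPM in mesoderm (3.29-fold), and ERG and SOX7 overlapped. Of the macrophage genes, the complement components C1QA and C1QC had no read in any mesoderm library and 1.1 to 5.32 CPM and 1.82 to 5.53 CPM in heart, at least 4.19-fold and 6.96-fold higher against a floor of 3 reads in the shallowest mesoderm library. Their highest heart libraries, the ventricle for both, were little above the minimum of 5 CPM. Neither was called without the ventricle, with bounds of 4.19-fold and 6.96-fold as before, nor with library totals, with bounds of 3.34-fold and 5.57-fold, since each then left the tested set.

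Matrix genes were called on both sides. Of 18 collagens and laminins, 5 were higher and none lower, with a median log2 ratio of 1.12. COL3A1, a fibrillar collagen, had 81.3, 20.4, 82.3 and 24.6 CPM in heart and 2.87, 3.58, 3.47 and 1.54 CPM in mesoderm (5.71-fold), high in node and junction. COL4A2, of basement membranes, had 93.6 to 222 CPM in heart against 22.5 to 36.4 in mesoderm (2.57-fold). Of 33 matrix glycoproteins and proteoglycans, 3 were higher and 3 lower, against 7.49% and 3.81% of all tested genes. EMILIN2, an elastic fibre glycoprotein, had 117, 173, 155 and 402 CPM in heart and 6.82, 6.73, 7.41 and 7.21 CPM in mesoderm (15.8-fold), and SPON1, a secreted spondin, 386, 268, 172 and 259 CPM in heart and 13.6, 10.05, 17.8 and 11.1 CPM in mesoderm (9.64-fold). FBLN1, a fibulin, was lower, with 16.2, 7.14, 35.5 and 7.49 CPM in heart and 192, 196, 194 and 168 CPM in mesoderm (4.72-fold), as was HAPLN1, which links hyaluronan to proteoglycans, with 6.03, 5.49, 24.8 and 5.32 CPM in heart and 104, 107, 149.9 and 127 CPM in mesoderm (4.2-fold). In both, the junction was the heart library nearest to mesoderm. Of 14 proteases and inhibitors 2 were higher, TIMP3 (23.5 to 136 CPM in heart against 3.41 to 5.58 in mesoderm) and ADAMTS3 (13.8 to 23.6 CPM in heart against 3.3 to 4.98 in mesoderm), and 2 lower, MMP17 (2.61 to 9.77 CPM in heart against 21.3 to 39.4 in mesoderm) and ADAMTS15 (4.23 to 9.06 CPM in heart against 22.9 to 55 in mesoderm). FN1, fibronectin, had 423 to 3037 CPM in heart against 1076 to 1547 in mesoderm and was not called.

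Among 20 cadherins, claudins and integrins 4 were higher and 3 lower, against 7.49% and 3.81% of all tested genes. CDH2, N-cadherin, which joins heart muscle cells, had 488, 367, 527 and 362 CPM in heart and 76.2, 79.1, 90.3 and 68.5 CPM in mesoderm (4.01-fold, 3.77 to 4.26). The epithelial proteins CLDN3 and EPCAM were lower. CLDN3, a claudin of tight junctions, had 4.31, 1.72, 0.608 and 1.19 CPM in heart and 70.9, 72.3, 82.9 and 81.4 CPM in mesoderm (16.5-fold), and EPCAM had 6.82, 17.7, 9.56 and 10.4 CPM in heart and 73.8, 77.9, 80.0 and 80.7 CPM in mesoderm (4.17-fold). CDH1, E-cadherin, had 27.1 to 74.4 CPM in heart against 115 to 134 in mesoderm and was not called.

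Of 16 splicing and RNA-binding regulators 2 were higher and 1 was lower, against 7.49% and 3.81% of all tested genes. RBM24, a splicing regulator of heart and skeletal muscle, had 599.7, 755, 609.9 and 780.5 CPM in heart and 42.6, 56.5, 35.6 and 37.6 CPM in mesoderm (10.6-fold, 9.79 to 11.5), and its relative RBM38 had 35.6 to 115 CPM in heart against 3.76 to 7.29 in mesoderm (4.88-fold). ESRP2, a splicing regulator of epithelia, was lower, with 1.01, 0.961, 0.956 and 0.326 CPM in heart and 32.6, 28.4, 29.2 and 35.5 CPM in mesoderm (28.2-fold, 16.6 to 52.2). The other 13 were not called. RBM20, which splices titin in heart, just missed the limit, with 57.3, 48.4, 54.7 and 44.2 CPM in heart and 16.4, 22.8, 9.89 and 11.9 CPM in mesoderm.

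On the lower side, LIN28A (chromosome 23, 148870 to 160164, minus strand) had the largest nearest-pair fold among named genes with at least 20 CPM in each mesoderm library. It had 3.66, 2.68, 1.48 and 2.28 CPM in heart and 1009, 883, 754 and 1021 CPM in mesoderm, 206-fold lower in heart (156 to 277). Heart values were low in all 4 libraries and mesoderm values were far above them in every library. LIN28B, its paralog, had 16.2, 14.4, 12 and 20.8 CPM in heart and 84.1, 59.8, 60.8 and 73.6 CPM in mesoderm (2.87-fold). TRIM71, a let-7 target that marks early embryonic cells, had 14.2, 12.9, 21.4 and 16.5 CPM in heart and 126, 123, 129 and 109 CPM in mesoderm (5.09-fold). These were the 3 called among 14 tested genes of the LIN28 and small RNA list, whose median log2 ratio was -0.45. Over all tested genes 3.81% were lower. IGF2BP3, another RNA-binding protein of embryonic cells, had 549.8 to 671 CPM in heart against 1092 to 1246 in mesoderm and missed the limit. The microRNA-processing enzyme DICER1 had 77.1 to 104 CPM in heart against 57.2 to 69 in mesoderm and was not called.

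PRTG (chromosome 10, 8959033 to 9035517, plus strand), protogenin, a receptor of early neural and mesodermal cells, had 26.1, 37.1, 44 and 25.1 CPM in heart and 862, 917, 1009.6 and 798 CPM in mesoderm (18.1-fold lower, 16.6 to 19.9). NR6A1, a nuclear receptor that represses pluripotency genes in gastrulating mouse embryos, had 4.96, 7.07, 7.12 and 8.35 CPM in heart and 190.4, 177, 191 and 196 CPM in mesoderm (21.2-fold lower). FIGNL2, a relative of the microtubule-severing enzyme fidgetin, had 31.1 to 57.4 CPM in heart against 214 to 255 in mesoderm (3.73-fold lower). In each, the 4 mesoderm libraries were within a narrow range.

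**Figure D4:**
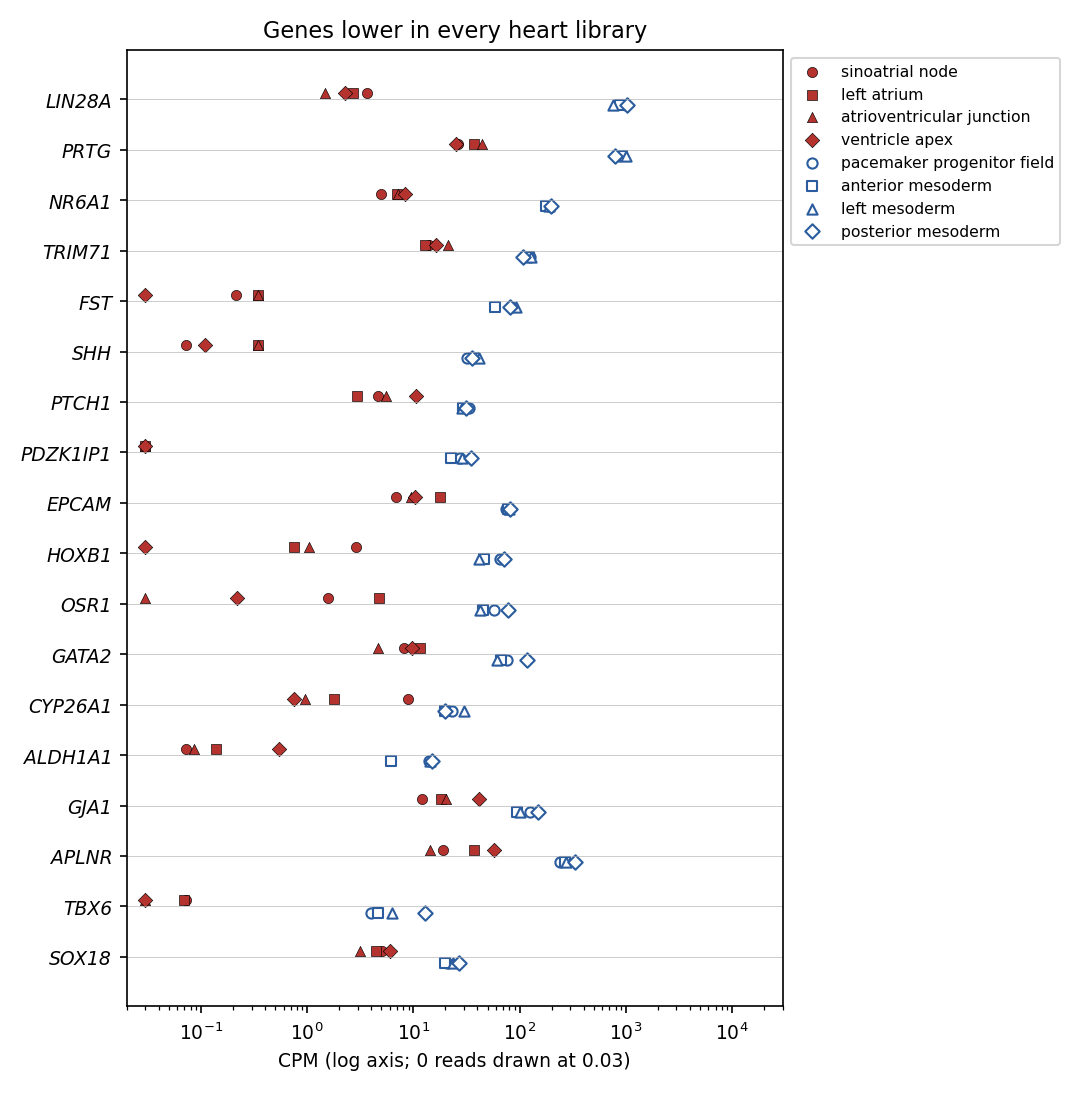
CPM (horizontal log axis) of 18 genes lower in every heart library, with the 4 heart libraries as filled red symbols and the 4 mesoderm libraries as open blue symbols. In each row every red symbol lies left of every blue one, as the call requires, and the blue symbols mostly stand close together. PDZK1IP1 had no read in any heart library.

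Genes of the gastrula and primitive streak had 10 of 13 tested members lower and none higher, against 3.81% and 7.49% of all tested genes. Their median log2 ratio was -3.60. The list had 20 members found by name. Those that reached 5 CPM in mesoderm alone, such as EOMES, could not have been called higher. TBX6, a factor of paraxial mesoderm, had 0.0718, 0.0686, 0 and 0 CPM in heart and 3.95, 4.63, 6.31 and 13 CPM in mesoderm. The heart values are 0 to 1 read, and the nearest-pair fold of 55 has an interval of 9.56 to 2200.3. EOMES had 0 to 0.0869 CPM in heart against 3.35 to 5.96 in mesoderm, TBXT (brachyury) 0.76 to 1.92 CPM in heart against 4.72 to 8.58 in mesoderm, and WNT8A 0 to 0.174 CPM in heart against 3.67 to 20.5 in mesoderm. CDX4, a posterior factor, had no read in heart and 6.11, 4.28, 6.65 and 19.3 CPM in mesoderm, at least 13.2-fold lower in heart. TBX6, WNT8A and CDX4 were each highest in the posterior mesoderm. FGF8, another signal of the streak, overlapped, with 5.6, 0.412, 1.74 and 0.109 CPM in heart and 0.379, 2.88, 0.231 and 0.257 CPM in mesoderm. CER1, an inhibitor with left-sided expression, had 0.144, 0.0686, 0 and 0 CPM in heart and 1.62, 0.437, 123 and 0.944 CPM in mesoderm. It was high in the left mesoderm alone and was not called, since the anterior mesoderm was under 1 CPM.

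HOX genes and their cofactors gave 7 lower of 11 tested and none higher, against 3.81% and 7.49% of all tested genes. Their median log2 ratio was -3.76. The list had 19 members found by name. Those that reached 5 CPM in mesoderm alone, such as HOXD3, could not have been called higher. HOXB1 (chromosome 27, 3638118 to 3641316, plus strand) had 2.87, 0.755, 1.04 and 0 CPM in heart and 65.3, 46, 41.4 and 71.2 CPM in mesoderm (14.4-fold, 10.5 to 20.4). HOXA3 had 17.6, 1.44, 0.521 and 0.217 CPM in heart and 40.5, 37, 49.4 and 46.6 CPM in mesoderm (2.1-fold), with the node an order of magnitude above the other heart libraries. HOXA4 was above all mesoderm libraries in the node (14.9, 0.206, 0.434 and 0.217 CPM in heart, 3.89, 4.81, 7.87 and 8.24 CPM in mesoderm) and so was not called. HOXB8 (0.0686 to 1.04 CPM in heart against 5.16 to 15.9 in mesoderm) and HOXD3 (0 to 0.0718 CPM in heart against 3.82 to 7.89 in mesoderm) were lower, and HOXD3 had at most 1 read in a heart library.

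The Hedgehog pathway gave 5 lower of 9 tested and none higher, against 3.81% and 7.49% of all tested genes. Its median log2 ratio was -2.53. Members that reached 5 CPM in mesoderm alone, such as IHH, could not have been called higher. The ligand SHH (chromosome 2, 7684549 to 8084907, minus strand) had 0.0718, 0.343, 0.347 and 0.109 CPM in heart and 32.3, 37.5, 41.4 and 35.3 CPM in mesoderm (92.9-fold, 36.1 to 342), and IHH 0.174 to 0.412 CPM in heart against 3.57 to 5.66 in mesoderm (8.67-fold). The receptor PTCH1, which is also a target of the pathway, had 4.6, 2.95, 5.47 and 10.6 CPM in heart, against 33.4, 29.2, 28.8 and 31.2 CPM in mesoderm (2.7-fold). GLI1, a transcription factor and target of the pathway, had 1.72, 2.06, 0.956 and 0.326 CPM in heart and 19.6, 12, 19.6 and 15.3 CPM in mesoderm (5.81-fold). Ligands, this receptor and GLI1 were thus lower together, while the transducer SMO overlapped (62 to 70.3 CPM in heart against 68.2 to 87.1 in mesoderm). The deposited span of SHH is far longer than the median span of tested genes (13 kb), and whether reads of other genes within it were counted there is not given in the sources used here. SHH is made by notochord and endoderm, and is itself in both marker lists. The other notochord gene tested, TBXT, was lower too. All 7 endoderm and liver genes tested, SHH among them, had a log2 ratio below 0, with a median of -6.09. The endoderm sums given above overlapped between the sides, but were mostly APOA1 in every library. The part of these cells in the SHH value was not tested.

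Retinoic acid genes gave 5 lower and 1 higher of 13 tested, against 3.81% and 7.49% of all tested genes. ALDH1A1, an enzyme that makes the acid, had 0.0718, 0.137, 0.0869 and 0.543 CPM in heart and 14.1, 6.2, 14.5 and 14.9 CPM in mesoderm (11.4-fold), whereas ALDH1A2, the enzyme of trunk mesoderm and epicardium, overlapped at 169 to 517 CPM in heart against 280.0 to 522 in mesoderm. The degrading enzymes went opposite ways. CYP26A1 had 8.98, 1.78, 0.956 and 0.76 CPM in heart and 22.9, 19.7, 30.2 and 19.7 CPM in mesoderm, lower by 2.19-fold (1.75 to 2.75), and CYP26B1 had 42.3, 37.7, 27.1 and 7.16 CPM in heart and 1.19, 2.18, 1.1 and 2.92 CPM in mesoderm, higher by 2.46-fold (1.6 to 3.83). DHRS3 (4.06-fold), the binding protein CRABP1 (12.8-fold) and the receptor RARA (2.29-fold) were lower.

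Calls in the other signalling lists can be read against the 7.49% higher and 3.81% lower among all tested genes. In the BMP, TGF-beta and activin list 3 of 21 were higher and 1 lower. FST (chromosome Z, 15391866 to 15398215, plus strand), follistatin, which binds activin, had 0.216, 0.343, 0.347 and 0 CPM in heart and 82.5, 58.2, 92.8 and 81.6 CPM in mesoderm (167-fold lower, 65.1 to 617), the second largest fold among named lower genes with at least 20 CPM in each mesoderm library. TGFB3 had 57.8 to 157 CPM in heart against 23 to 25.9 in mesoderm (2.23-fold higher, not called with library totals) and the BMP inhibitor CHRDL1 2.82 to 24.6 CPM in heart against 0.175 to 0.926 in mesoderm (3.05-fold higher). BMP4 had 15.7 to 51 CPM in heart against 13.3 to 27.7 in mesoderm and BMP2 2.5 to 62.4 CPM in heart against 20.7 to 38.9 in mesoderm, without a call. The activin receptor ACVR2B had 22.5, 15.4, 18.9 and 6.29 CPM in heart and 50.7, 55, 44.6 and 63.9 CPM in mesoderm and fell just short (1.98-fold).

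The FGF list gave 1 higher and 2 lower of 13. The receptors FGFR2 (12.6 to 33.1 CPM in heart against 113 to 165 in mesoderm) and FGFR3 (18.2 to 36.7 CPM in heart against 90.1 to 112 in mesoderm) were lower by 3.41-fold and 2.45-fold, and FGFR1 overlapped at 95.6 to 204 CPM in heart against 201 to 224 in mesoderm. FGF22 was higher, at 3.8 to 10.2 CPM in heart against 0.379 to 0.81 in mesoderm. Of 28 Wnt pathway genes, 1 was higher, the receptor FZD9 (24.6 to 77.4 CPM in heart against 7.7 to 11.2 in mesoderm, not called with library totals), and 2 were lower, WNT8A and the Wnt-inactivating enzyme NOTUM (1.36 to 2.6 CPM in heart against 10.05 to 17.3 in mesoderm). None of 8 Notch pathway genes was called: HEY2, a target in the ventricle, had 24.6, 19.8, 175 and 292 CPM in heart and 61.3, 106, 97.3 and 63.1 CPM in mesoderm, and HEY1 12.4 to 32.5 CPM in heart against 26.2 to 31.1 in mesoderm. Among growth factors and receptor kinases, IGFBP7 was higher (40.9 to 91.3 CPM in heart against 1.49 to 2.43 in mesoderm), and the kit ligand KITLG (1.03 to 1.41 CPM in heart against 10.1 to 11.6 in mesoderm) and PDGFRA (3.91 to 22.9 CPM in heart against 51.7 to 62.6 in mesoderm) were lower. Of 28 guidance genes ROBO4 and SEMA6D were higher (5.3 to 24.5 CPM in heart against 0.612 to 2.14 in mesoderm, and 19.5 to 48.4 CPM in heart against 4.89 to 7.64 in mesoderm) and SEMA3G was lower (0.434 to 1.04 CPM in heart against 11.5 to 15.5 in mesoderm). With library totals ROBO4 and SEMA6D were not called.

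Of 15 lateral plate and intermediate mesoderm genes, 4 were lower and 1, TBX5, was higher. OSR1 had 1.58, 4.73, 0 and 0.217 CPM in heart and 58, 45.3, 42.7 and 78.1 CPM in mesoderm (9.02-fold, 7.04 to 11.7), and its relative OSR2 0.862, 0.0686, 0.0869 and 0 CPM in heart and 35, 25.3, 35.6 and 41.5 CPM in mesoderm (29.4-fold). GATA2 had 8.12, 11.6, 4.6 and 9.66 CPM in heart and 75.5, 67.5, 61.7 and 116 CPM in mesoderm (5.32-fold), and LHX1, of intermediate mesoderm, 0.144 to 0.343 CPM in heart against 1.92 to 11.6 in mesoderm (5.6-fold). FOXL1, a factor of gut mesenchyme, had 0.503, 1.78, 0 and 1.09 CPM in heart and 24.9, 25.1, 24.9 and 31.3 CPM in mesoderm (13.9-fold). Epicardial and cushion genes were mixed: TCF21 overlapped with 138, 15.9, 140.0 and 23.3 CPM in heart and 105, 100.5, 54.3 and 78.9 CPM in mesoderm, and SNAI2, a factor of migrating mesenchyme, had 28.9, 8.3, 40.9 and 7.81 CPM in heart and 95.8, 82.7, 92.3 and 89.2 CPM in mesoderm, lower by 2.02-fold (not called with DESeq2 scaling), the junction being nearest to mesoderm. Of 10 epicardium and fibroblast genes 1 was higher, the proteoglycan DCN (12.8 to 38.9 CPM in heart against 1.4 to 2.16 in mesoderm), and 2 were lower. The list summed to 248 to 774 CPM in heart and 499 to 719 CPM in mesoderm. Of 11 cushion genes 1 was higher, TBX20, and 2 were lower, and the sums were 295 to 961 CPM in heart, most in the junction, and 549 to 595 CPM in mesoderm. Over all tested genes 7.49% were higher and 3.81% lower. Of 7 smooth muscle genes, TAGLN (27.4 to 74.5 CPM in heart against 0.686 to 1.45 in mesoderm) and DES (217 to 408 CPM in heart against 6.52 to 9.95 in mesoderm) were higher and none was lower.

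Some markers of the neighbouring germ layers were lower in heart. Of 13 endoderm and liver genes found by name, 7 were tested. Of these 4 were lower, SHH among them, and all 7 had a log2 ratio below 0, with a median of -6.09. Those that reached 5 CPM in mesoderm alone, such as TTR, could not have been called higher. The sums of the list overlapped between the sides, and APOA1 made up most of the sum in every library. FGB, a fibrinogen chain, had 11, 1.03, 1.82 and 1.3 CPM in heart and 152, 159, 172 and 139 CPM in mesoderm (12.6-fold), and TTR, transthyretin, 4.67, 0.137, 0 and 0 CPM in heart and 46, 32.9, 62.7 and 74 CPM in mesoderm (7.05-fold), both with the node the highest heart library. APOA1 had 1489, 635, 436 and 98.4 CPM in heart and 619, 698, 681 and 796 CPM in mesoderm. It was above every mesoderm library in the node alone, within their range in the atrium, and below it in the junction and ventricle. Of 10 neural and ectoderm genes, 4 were lower and 1, the neurofilament NEFL (15 to 56.5 CPM in heart against 1.62 to 3.23 in mesoderm), was higher. The shares over all tested genes were 3.81% lower and 7.49% higher. DLX5, a factor of the border of the neural plate, had 0.0718, 0.274, 0.782 and 0.109 CPM in heart and 7.14, 5.94, 3.18 and 13.5 CPM in mesoderm (4.07-fold). Both notochord genes tested, SHH and TBXT, 2 of 3 somite genes, TBX6 and PAX3, and 2 of 5 neural crest genes, CRABP1 and SNAI2, were lower. The mesoderm libraries thus held transcripts of endoderm, ectoderm and notochord markers, and their part in the other lower calls was not tested. PDZK1IP1, in no list, had no read in heart and 27.7, 22.5, 28.8 and 34.7 CPM in mesoderm (at least 69.3-fold), and SPP1, osteopontin, had 1.44, 0.274, 1.39 and 1.09 CPM in heart and 77.1, 55, 93.2 and 135 CPM in mesoderm (38.3-fold).

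Calls among genes of growth stand beside 7.49% higher and 3.81% lower among all tested genes. Of 35 genes of MYC and ribosome biogenesis, 34 had a log2 ratio below 0, with a median of -0.60, and 1 was called (4 with library totals), ODC, ornithine decarboxylase, with 79.9, 86.1, 88.6 and 67.3 CPM in heart and 209, 198, 228 and 211 CPM in mesoderm (2.23-fold). MYCN had 12.6, 29.2, 30.9 and 57.7 CPM in heart and 132, 126, 67.4 and 146 CPM in mesoderm and met the limit in 15 of 16 pairs. NCL, nucleolin, had 968 to 1516 CPM in heart against 1851 to 1998 in mesoderm. Of 31 cell cycle genes, CCNE1, which drives entry into S phase, and PLK4, which duplicates centrioles, were lower, by 2.07-fold and 2.03-fold, and none was higher. PLK4 was not called with DESeq2 scaling. MKI67 had 19.6, 18.6, 18.1 and 16.6 CPM in heart and 35.3, 40.6, 40.3 and 35.9 CPM in mesoderm (1.8-fold), and PCNA 202 to 271 CPM in heart against 333 to 409 in mesoderm. The cell cycle median was -0.53. None of 48 cytosolic ribosomal protein genes was called, and their median was 0.13 with TMM and -0.19 with library totals.

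Of 26 chromatin genes 1 was higher and 2 were lower, against 7.49% and 3.81% of all tested genes, and the median log2 ratio was -0.63. The Polycomb gene CBX2 (2.61 to 3.81 CPM in heart against 16 to 22 in mesoderm) and SMARCD1, of the SWI/SNF complex (11.7 to 15.7 CPM in heart against 33.5 to 46 in mesoderm), were lower. The histone deacetylase HDAC9 (71.6, 43.2, 42.5 and 95.8 CPM in heart and 7.09, 8.21, 6.65 and 5.75 CPM in mesoderm, 5.17-fold) was higher. SMARCD3, the form of that subunit in heart, had 29.5, 30.5, 29.8 and 27.7 CPM in heart and 16.1, 13.3, 9.43 and 10.1 CPM in mesoderm and missed the limit. JARID2 had 32.1 to 46.6 CPM in heart against 86.1 to 140.2 in mesoderm, at least 2-fold lower in 15 of 16 pairs, and EZH2 135 to 176 CPM in heart against 243 to 268 in mesoderm. Of 6 pluripotency and epiblast genes tested, 4 were lower, among them LIN28A, LIN28B and EPCAM.

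**Figure D5:**
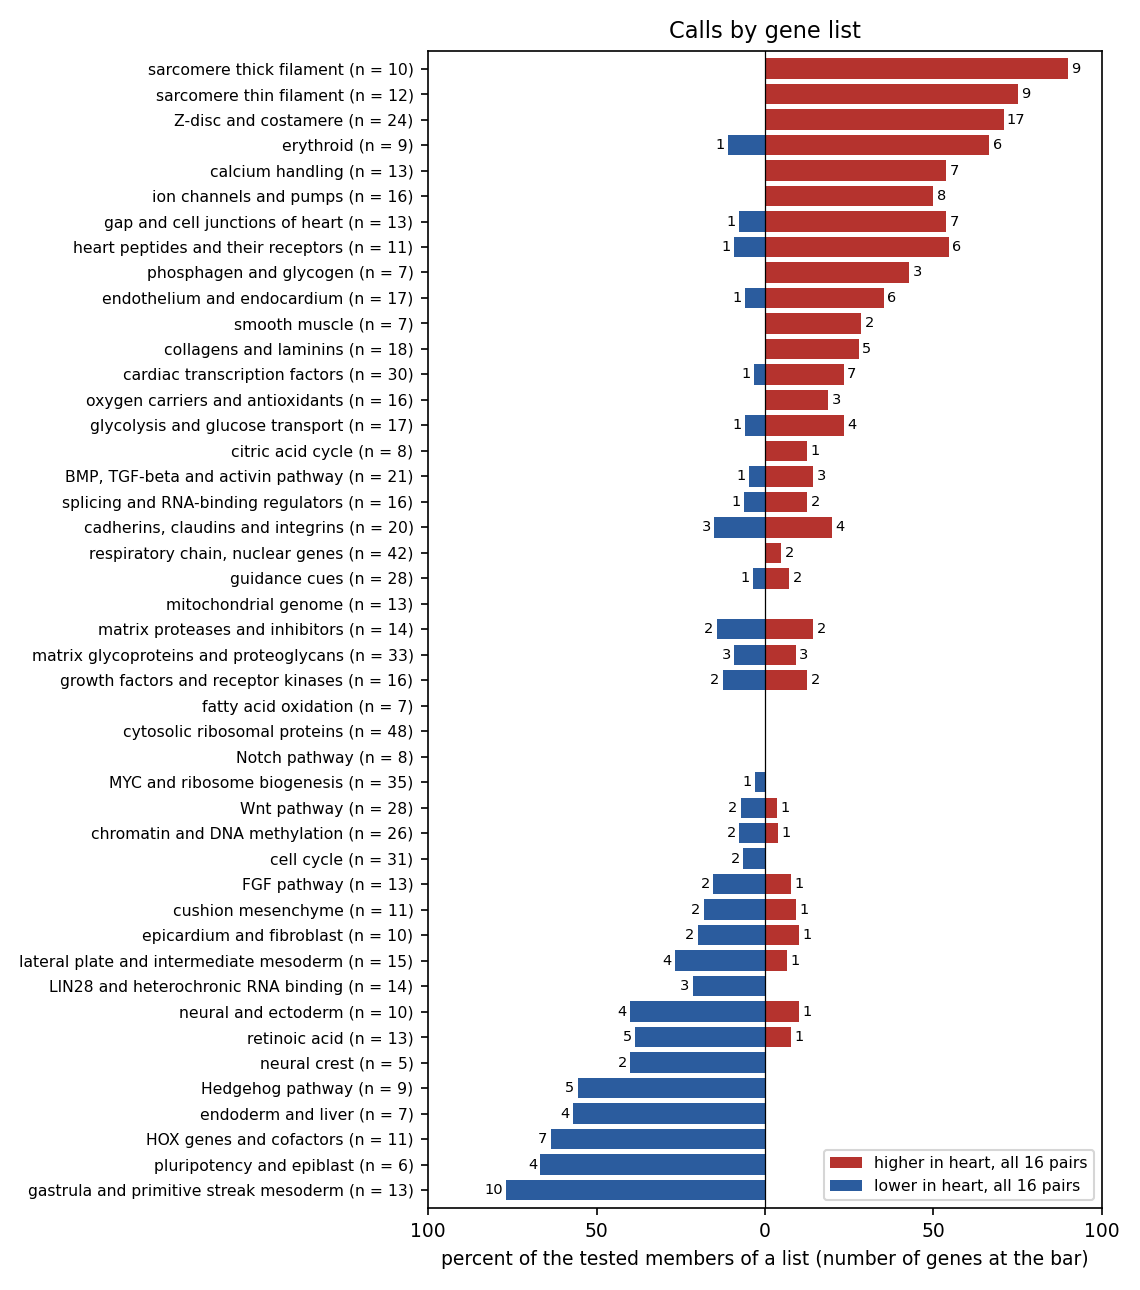
Percent of the tested members of each gene list (lists with at least 5 tested members; n in the row name) that were higher in every heart library (red, right) or lower in every heart library (blue, left), with the number of genes at each bar. Sarcomere, calcium and channel lists hold red bars only, and gastrula, pluripotency, HOX and Hedgehog lists blue bars only.

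The sides differed in how alike their own libraries were. Of all tested genes 7740 lay within 2-fold among the 4 heart libraries and 9419 among the 4 mesoderm libraries. The left mesoderm is labelled by side only, and whether it shares tissue with the other mesoderm samples is not given. The counts thus compare unlike sets of tissues. Of the genes higher in heart, 388 of 783 lay within 2-fold among the heart libraries, with a median ratio of highest to lowest of 2.02. Of the lower genes, 324 of 398 lay within 2-fold among the mesoderm libraries, with a median of 1.41. The ventricle held the highest heart value for 257 of the higher genes, the atrium for 183, the node for 181 and the junction for 162. The lowest heart value was in the junction for 237 of them, in the ventricle for 223, in the node for 204 and in the atrium for 119. The same counts over all tested genes were not made. The posterior mesoderm held the highest mesoderm value for 174 of the lower genes and the progenitor field for 56, and they held the lowest for 74 and 69.

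Among named genes higher in heart, those with the widest range within heart were NPPA, GKN2, MYOZ2, HPGD and CHGB. MYOZ2, a Z-disc protein that binds calcineurin, had 2.44, 55, 89.6 and 39.8 CPM in heart and 0.325, 0.0874, 0.0579 and 0.0858 CPM in mesoderm, far lower in the node than in the other heart libraries. GKN2, gastrokine 2, had 85.7, 14, 4.26 and 14.8 CPM in heart and 0.0541, 0.175, 0.0579 and 0.0858 CPM in mesoderm, and CHGB, chromogranin B of secretory granules, 152, 21.1, 29.2 and 9.01 CPM in heart and 3.35, 3.76, 3.88 and 2.83 CPM in mesoderm, both highest in the node. CHGB was not called with library totals. HPGD, which inactivates prostaglandins, had 5.96, 12.4, 1.48 and 34.2 CPM in heart and 0.541, 0.175, 0.174 and 0.257 CPM in mesoderm and was highest in the ventricle. Within mesoderm the widest range among named lower genes was that of WNT8A, CDH20, ISX, LHX1 and CDHR2, and of these ISX had 0.359, 0, 0 and 0 CPM in heart and 9.63, 2.88, 10.1 and 19.3 CPM in mesoderm. CDHR2, at 0 to 0.647 CPM in heart against 1.4 to 7.81 in mesoderm, had an interval that includes 1 (0.9 to 5.55).

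The 2-fold limit fell within a continuous range of folds. Just inside it on the higher side were DNM1 (2.011), TM2D1 (2.007) and PDZD8 (2.004), and just outside it CYB5D2 (1.986), ENPP3 (1.988) and SEZ6L (1.979). On the lower side FHDC1 (2.008), NECTIN3 (2.008) and FABP7 (2.006) were just inside, and STRA6, METRN and TBXAS1 (1.996, 1.995 and 1.983) just outside. FABP7 had 224, 147, 279 and 230.5 CPM in heart and 609.9, 631, 562 and 559.5 CPM in mesoderm. The interval of the nearest pair excluded 1 for 780 of the 783 higher and 397 of the 398 lower genes, the exceptions being DOCK8, RERG and VWF on the higher side and CDHR2 on the lower. No read at all was found in mesoderm for 5 higher genes, among them C1QA, C1QC and ZNF536, nor in heart for 5 lower ones, among them CDX4, PDZK1IP1 and TMPRSS2.

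Of 56 pairs of related genes that were listed, 27 had both genes tested, and 1 of these had a higher and a lower gene, the T-box factors TBX20 (higher) and TBX6 (lower). The opposite connexins and CYP26 enzymes described above were not among the listed pairs. By position, chromosomes and unplaced sequence with at least 50 tested genes were compared, beside 7.49% higher and 3.81% lower over all tested genes. The higher share ran from 2.88% of 486 genes on unplaced sequence to 13.7% of 95 on chromosome 22. The lower share ran from 1.05% on chromosome 22 to 6.87% of 233 on chromosome 18. The chromosome 22 shares rest on 13 higher genes and 1 lower gene. The median span on the genome was 16.6 kb for higher genes, 10.4 kb for lower genes and 13 kb for all tested genes. Of the called genes, 503 higher and 225 lower carried a symbol, and the rest are counted here without a name.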

How the data were processed

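Polyadenylated RNA of 8 pools of dissected chick embryonic tissue, 1 library each, was sequenced in paired reads of 36 bases, per the labels' protocols. The tools named are Bowtie and TopHat, per the submitters' processing notes. Tool versions, counting program, use of strand and genome build are not given in the sources used here. Per the file headers, the authors deposited read counts per gene for 7 libraries and counts per 1000000 reads (CPM) for 8. For the posterior mesoderm, reads were worked back out of the CPM, and 100% of its values came out whole within 0.01 read.

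Genes (17778 listed) were named by matching to RefSeq GRCg7b, used for names and neighbours only: 7588 by symbol, 714 by older symbol, 453 by gene identifier and 346 by entry name, while 8556 had no match. Promoter and protein sequences were not used here, and a few genes are not reported here by name. The counts were scaled with TMM (edgeR 4.0.16 in R 4.3.3), and further steps used Python 3.11.15, pandas 2.3.3 and scipy 1.17.1. A side with no read in any of its 4 libraries was set to a floor of 3 reads in its shallowest library for a fold, and log2 ratios of the sides' geometric means set every count under 3 to 3. Intervals and floors cover counting error only. With no replicates, no p-value was computed.

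The members and the 48 gene lists (1566 entries, 904 found, 830 distinct genes) were chosen with earlier results of these data known. Genes were named by rule: the 15 with the largest fold in each direction at 20 CPM or more in every library of the higher side, up to 4 called members of each list in each direction or else the 2 with the highest mean, opposite paralogs, the 3 nearest to the limit on either side, and the 5 with the largest spread and the highest level. Other genes, such as list members that were not called, were chosen after their values were seen. Alternatives were library totals, DESeq2 1.42.0 size factors, other minimums, fold limits, a pseudocount, interval limits, geometric means and leaving out each library.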

Additional observations from a re-analysis of the deposited data

How the results depend on the processing

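Calls rest on 1 library per tissue, and no value measures variation between embryos or pools. No paired analysis was possible because the libraries carry no replicate numbers and no test was made. Against 783 higher and 398 lower genes, scaling by library totals gave 599 and 655, and a minimum of 20 CPM gave 526 and 214. A fold limit of 1.5 gave 1211 and 826, and one of 4 gave 403 and 156. An interval beyond 2 gave 556 and 254, and geometric means 1706 and 1027. With totals over genes outside the 100 highest, the erythroid list and the mitochondrial genome, the counts were 681 and 528. The other planned settings (DESeq2 size factors, no minimum, a pseudocount of 1 CPM, an interval beyond 1) gave 677 to 872 higher and 325 to 513 lower. TMM scaling without the erythroid or the contractile lists, added after seeing the data, gave 795 and 803 higher and 387 and 385 lower. Leaving out 1 library gave 807 to 895 higher and 410 to 477 lower. Fewer pairs then had to meet the limit, so a rise in these counts came with the rule. Of 182 genes named by rule, none was called in the opposite direction. For called genes the 2-fold gap in every pair left little room for that, so it says nothing about stability. Of the 182, 17 lost their call with library totals, 17 with a pseudocount and 4 with DESeq2 size factors. Those lost with library totals were C1QA, C1QC, CHGB, DNM1, FZD9, HMOX1, IDH1, LTBP1, PCDH7, PDZD8, ROBO4, SEMA6D, SLC16A3, TGFB3, TIE1, TM2D1 and VWF. Those lost with the pseudocount were CCNE1, CDHR2, CHRDL1, DNM1, FHDC1, HPGD, ITGA1, NECTIN3, PAX3, PDZD8, PLK4, SLC2A12, SNAI2, TAL1, TBXT, TM2D1 and VWF, and with DESeq2 size factors FABP7, FHDC1, PLK4 and SNAI2. Without the node SLC2A12 and VWF, without the ventricle ITGA1, C1QA and C1QC, without the left mesoderm EOMES, and without the posterior mesoderm CDHR2, HOXD3, IHH, PAX3 and UPK3B left the tested set, since no remaining library reached 5 CPM. The RefSeq promoter motifs planned for the called genes were not run.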

Other observations

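Some further gene groups were described. Their members were listed after the values had been seen, so the counts below describe these libraries and support nothing. The shares over all tested genes were 7.49% higher and 3.81% lower. Of 7 tested sterol synthesis genes, 4 were lower in every heart library, none was higher, and all 7 had a log2 ratio below 0. SQLE, squalene epoxidase, had 9.91, 12.2, 11.2 and 7.92 CPM in heart and 44.2, 52.6, 49.9 and 46.2 CPM in mesoderm (3.62-fold lower, 3.08 to 4.28). NSDHL, a later enzyme of the pathway, had 16.8, 16.6, 18.9 and 19.6 CPM in heart and 82.5, 87.9, 76.8 and 84.3 CPM in mesoderm (3.91-fold), DHCR7, which makes cholesterol in the last step, had 21.7 to 23.8 CPM in heart against 64.2 to 67.9 in mesoderm (2.7-fold), and HMGCS1, an early enzyme, 39.8 to 44.7 CPM in heart against 106 to 119.9 in mesoderm (2.38-fold). MVK was close on both sides, at 24 to 39.3 CPM in heart against 27 to 40.7 in mesoderm.

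Of 5 tested small heat shock proteins, chaperones common in muscle, 4 were higher. HSPB1 had 1153, 1257, 1186 and 1031 CPM in heart and 18.1, 21.5, 16 and 23.2 CPM in mesoderm (44.3-fold). HSPB8 had 549.6, 719, 442 and 844 CPM in heart and 7.84, 7.6, 5.5 and 10.5 CPM in mesoderm (42.2-fold). HSPB3 and HSPB7 were higher by 264-fold (90.1 to 1286) and 32.1-fold (14.4 to 88.9). In the mesoderm library of the nearest pair these genes had 3 and 6 reads. HSPB9 overlapped, at 15.1 to 34.6 CPM in heart against 22.7 to 30.4 in mesoderm. Both nuclear factor I genes tested were higher, NFIA with 23.7 to 34.3 CPM in heart against 0.874 to 1.95 in mesoderm and NFIB with 44.6 to 58.4 CPM in heart against 1.03 to 2.14 in mesoderm. Of 6 genes of the ASB family, which serve ubiquitin ligases, ASB2 (73.5 to 93.9 CPM in heart against 0.0579 to 0.343 in mesoderm) and ASB12 (86.7 to 122 CPM in heart against 0.162 to 0.437 in mesoderm) were higher and 4 were not called. Of 5 serine and one-carbon genes none was called, for example PHGDH at 29.7 to 76.9 CPM in heart against 74.1 to 108 in mesoderm.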
